A study of Mus musculus with 16 samples.

Results

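The guanylate-binding proteins (GBPs) and the immunity-related GTPases (IRGs) were followed in mouse embryo fibroblasts (MEFs) of 2 genotypes, with and without tumor necrosis factor-α (TNFα). The set holds 9 genes listed by name, Gbp2, Gbp3, Gbp5, Gbp6, Gbp7, Igtp, Irgm1, Irgm2 and Iigp1. In all, 19938 genes were measured by a probe set listed for a single gene, among them 5 of the 9. The genes were listed by family rather than by a threshold on a measured value, with earlier results of these data known. Other genes of both families are described apart. Of the 9 genes, 5 (Gbp3, Gbp5, Gbp7, Irgm1 and Iigp1) had 1 probe set each of their own. The other 4 were measured only by 3 probe sets that are listed for several genes, so their values cannot be given to a single gene. These are a probe set for Gbp2 and its neighbour Gbp2b, a probe set for Igtp and Irgm2, and a probe set for Gbp6 together with Gbp4, Gbp8, Gbp9, Gbp10 and Gbp11.

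RNA was hybridised to Affymetrix Mouse Gene 1.0 ST arrays, 16 in number, with 4 per group. The 4 groups were SIMPL-/- MEFs treated with TNFα, untreated SIMPL-/- MEFs, littermate MEFs treated with TNFα and untreated littermate MEFs. All were described as proliferating embryonic fibroblasts of a C57Bl/6 x 129Sv background, and markers of other cell types are given below. The SIMPL-/- cells lack SIMPL, the product of Irak1bp1, which takes part in TNFα signaling to NF-κB. Treatment was recombinant human TNFα at 10 ng/ml for 45 min per the labels, while the methods of the study give a longer time. Per the study's methods the MEFs of each genotype came from 4 separately derived embryos, and which treated array shares an embryo with which untreated array is not given. The values are log2 signals normalised over all arrays, and a difference of 1 is a doubling. Groups were compared within each probe set, since levels of different probe sets are not on a common scale. Where arrays of compared groups are said not to overlap, this describes the arrays, and the share of all genes without overlap is not given.

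GBPs and IRGs are GTPases of cell-autonomous immunity. Interferon-γ induces most of them, and their promoters can hold a gamma-activated sequence (GAS) and an interferon-stimulated response element (ISRE), at which IRF1 acts. GBPs gather on the vacuoles and membranes of intracellular bacteria and parasites and promote inflammasome activation, and effector IRGs such as Iigp1 disrupt those vacuoles under the control of the regulatory IRGs Irgm1, Irgm2 and Igtp. Irf1 is itself a rapid target of NF-κB.

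GBP genes with unlike estimated TNFα responses lie side by side, and promoter windows are shown for Gbp5, Gbp7, Gbp3 (first start), Gbp2 and Irgm1. Those of Igtp, Irgm2 and the second start of Gbp3 were searched as well and are not printed. In RefSeq (GRCm38.p6), Gbp5, Gbp7, Gbp3, Gbp2b and Gbp2 follow each other on chromosome 3 with no other protein-coding gene in between, Igtp and Irgm2 are neighbours on chromosome 11, and Irgm1 lies elsewhere on chromosome 11. RefSeq promoter windows, from 250 bases before to 49 bases after the annotated start, matched 7 of the 9 genes (8 windows, since Gbp3 has 2 starts). Both strands were searched for an ISRE (GAAA, then any 2 bases, then GAAA), a GAS (TTCNNNGAA, which reads the same on both strands) and an NF-κB site (GGG, then any 3 bases, then TTCC). Capitals mark the matches, and positions count from 0 at the annotated start.
Gbp5, chr3:142496684-142496983, plus strand: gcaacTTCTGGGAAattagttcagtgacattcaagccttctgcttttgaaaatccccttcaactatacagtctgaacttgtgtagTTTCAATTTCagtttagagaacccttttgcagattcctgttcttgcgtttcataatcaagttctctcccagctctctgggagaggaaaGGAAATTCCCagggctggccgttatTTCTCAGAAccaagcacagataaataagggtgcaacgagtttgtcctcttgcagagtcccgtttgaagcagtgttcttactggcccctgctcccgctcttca
Gbp7, chr3:142530086-142530385, plus strand: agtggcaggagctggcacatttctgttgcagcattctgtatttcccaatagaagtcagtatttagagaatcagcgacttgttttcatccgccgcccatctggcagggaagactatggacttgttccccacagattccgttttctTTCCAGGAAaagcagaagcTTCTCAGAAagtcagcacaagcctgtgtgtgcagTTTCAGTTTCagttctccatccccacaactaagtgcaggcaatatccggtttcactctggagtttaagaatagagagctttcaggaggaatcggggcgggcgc
Gbp3, first start, chr3:142559794-142560093, plus strand: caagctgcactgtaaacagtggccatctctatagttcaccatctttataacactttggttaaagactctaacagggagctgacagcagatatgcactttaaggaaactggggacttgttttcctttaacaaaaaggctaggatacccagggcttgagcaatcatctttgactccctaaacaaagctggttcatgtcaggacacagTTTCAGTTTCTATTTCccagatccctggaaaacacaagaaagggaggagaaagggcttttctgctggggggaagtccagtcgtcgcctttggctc
Gbp2, chr3:142620413-142620712, plus strand: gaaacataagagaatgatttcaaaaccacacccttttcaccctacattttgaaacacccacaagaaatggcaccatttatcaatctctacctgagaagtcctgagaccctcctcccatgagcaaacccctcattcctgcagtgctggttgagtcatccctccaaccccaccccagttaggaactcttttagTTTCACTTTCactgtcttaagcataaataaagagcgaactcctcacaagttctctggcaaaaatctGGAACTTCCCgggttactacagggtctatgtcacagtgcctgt
Irgm1, chr11:48871371-48871670, minus strand: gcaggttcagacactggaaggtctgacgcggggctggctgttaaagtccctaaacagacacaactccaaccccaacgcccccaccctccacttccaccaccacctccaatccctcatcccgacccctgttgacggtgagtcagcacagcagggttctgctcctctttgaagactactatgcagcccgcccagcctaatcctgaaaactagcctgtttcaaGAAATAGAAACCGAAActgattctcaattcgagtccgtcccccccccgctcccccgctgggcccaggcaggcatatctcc

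The ISRE letters occurred in the windows of all 7 genes, in 7 of 8 windows, against 3.44% of 32851 mouse promoter windows. The second start of Gbp3 had none of the 3 motifs. In Gbp3 and in Irgm1 the capitals hold 2 overlapping ISRE matches, at -45 and -39 in Gbp3 and at -30 and -24 in Irgm1. The GAS letters occurred in 4 of 8 windows, those of Gbp5 (at -245 and -52), Gbp7 (at -106 and -87), Igtp (at -45) and Irgm2 (at -75), against 8.3% of all windows. The NF-κB letters occurred only in Gbp5, at -77, and in Gbp2, at 7 within the transcribed part, against 5.56% of all windows. A looser NF-κB form (GGG, then any 5 bases, then CC), which contains the stricter one, was found in 5 of 8 windows and in 50.8% of all windows. These are matches of letters, with no measurement of binding.

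**Figure D1:**
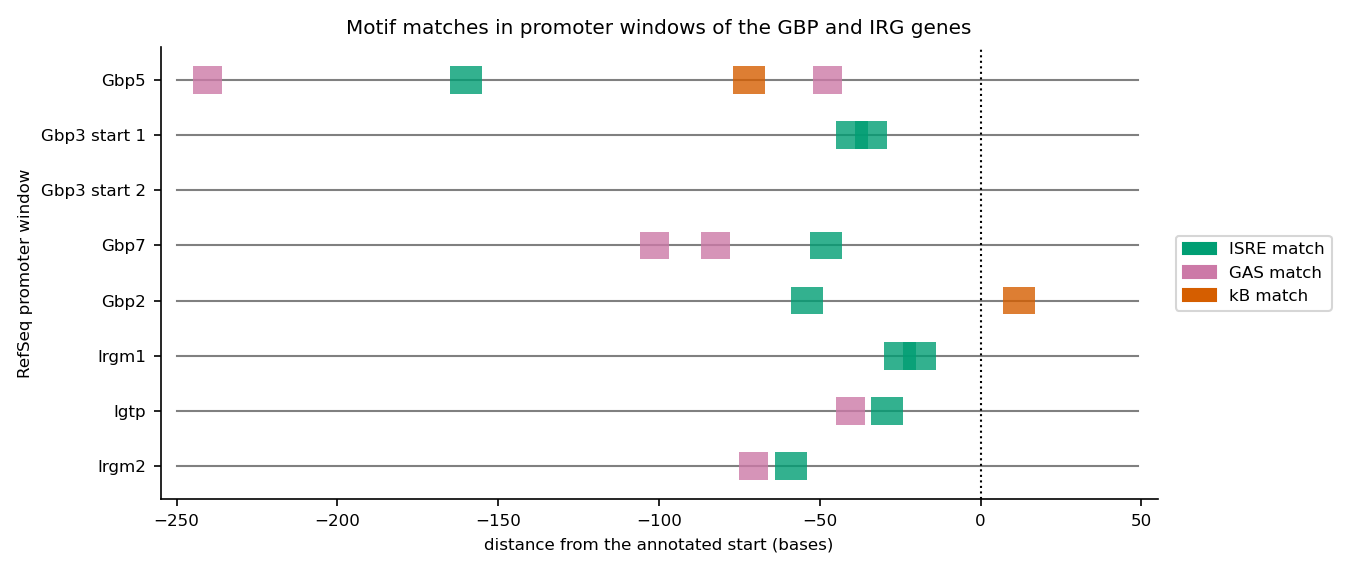
Position of motif matches (x axis, bases from the annotated start) in the RefSeq promoter windows of the member genes, 1 row per window, with a mark for each ISRE, GAS and NF-κB match on either strand. An ISRE stands in each window except the second start of Gbp3, a GAS in the windows of Gbp5, Gbp7, Igtp and Irgm2, and an NF-κB match in Gbp5 and Gbp2.

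The arrays resembled each other within groups (correlation of at least 0.995 between arrays of a group), and array medians lay between 6.67 and 6.76. Irak1bp1 averaged 5.37 ± 0.24 in treated and 5.36 ± 0.19 in untreated SIMPL-/- MEFs, against 7.91 ± 0.18 in treated and 8.09 ± 0.17 in untreated littermate MEFs (SD, n = 4 each), a difference of -2.54 with and -2.73 without TNFα. Fibroblast markers were high in all 4 groups (mean log2 level over 16 genes 11.6 in both SIMPL-/- groups and 11.9 in both littermate groups), though 4 of the 16 were higher and 10 lower in treated SIMPL-/- MEFs, and 4 higher and 11 lower in untreated ones. Between SIMPL-/- and littermate MEFs, single fibroblast markers differed by -2.78 to 1.7 with TNFα and by -2.87 to 1.69 without it. Myeloid markers separated the genotypes. Of 28 such genes, 27 (all but Clec7a) were lower in treated and in untreated SIMPL-/- MEFs, with median differences of -2.13 and -2.02. The log2 of their summed level ran from 12.5 to 12.6 in both SIMPL-/- groups, against 14.8 to 15.2 in treated and 14.7 to 15.1 in untreated littermate MEFs. Csf1r averaged 8.31 and 8.13 in treated and untreated SIMPL-/- MEFs, against 10.4 and 10.2 in treated and untreated littermate MEFs. Whether the lower level in SIMPL-/- MEFs lay above the background of the array was not tested. Of 13 lymphoid and mast cell markers only Kit differed (lower in SIMPL-/- MEFs, treated and untreated). Beside the marker counts of this paragraph, 18.4% of all genes were lower and 17.8% higher in treated SIMPL-/- MEFs. In untreated ones 17.6% of all genes were lower and 23.3% higher. Of 10 endothelial markers, 4 were higher and 2 lower in treated SIMPL-/- MEFs than in treated littermate MEFs, and 4 were higher in untreated ones. Of 8 epithelial markers, 3 were higher in treated and 5 in untreated SIMPL-/- MEFs, and 0 were lower in either. Among these, Krt18 averaged 9.25 and 9.29 in treated and untreated SIMPL-/- MEFs, against 7.17 and 7.16 in treated and untreated littermate MEFs.

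**Figure D2:**
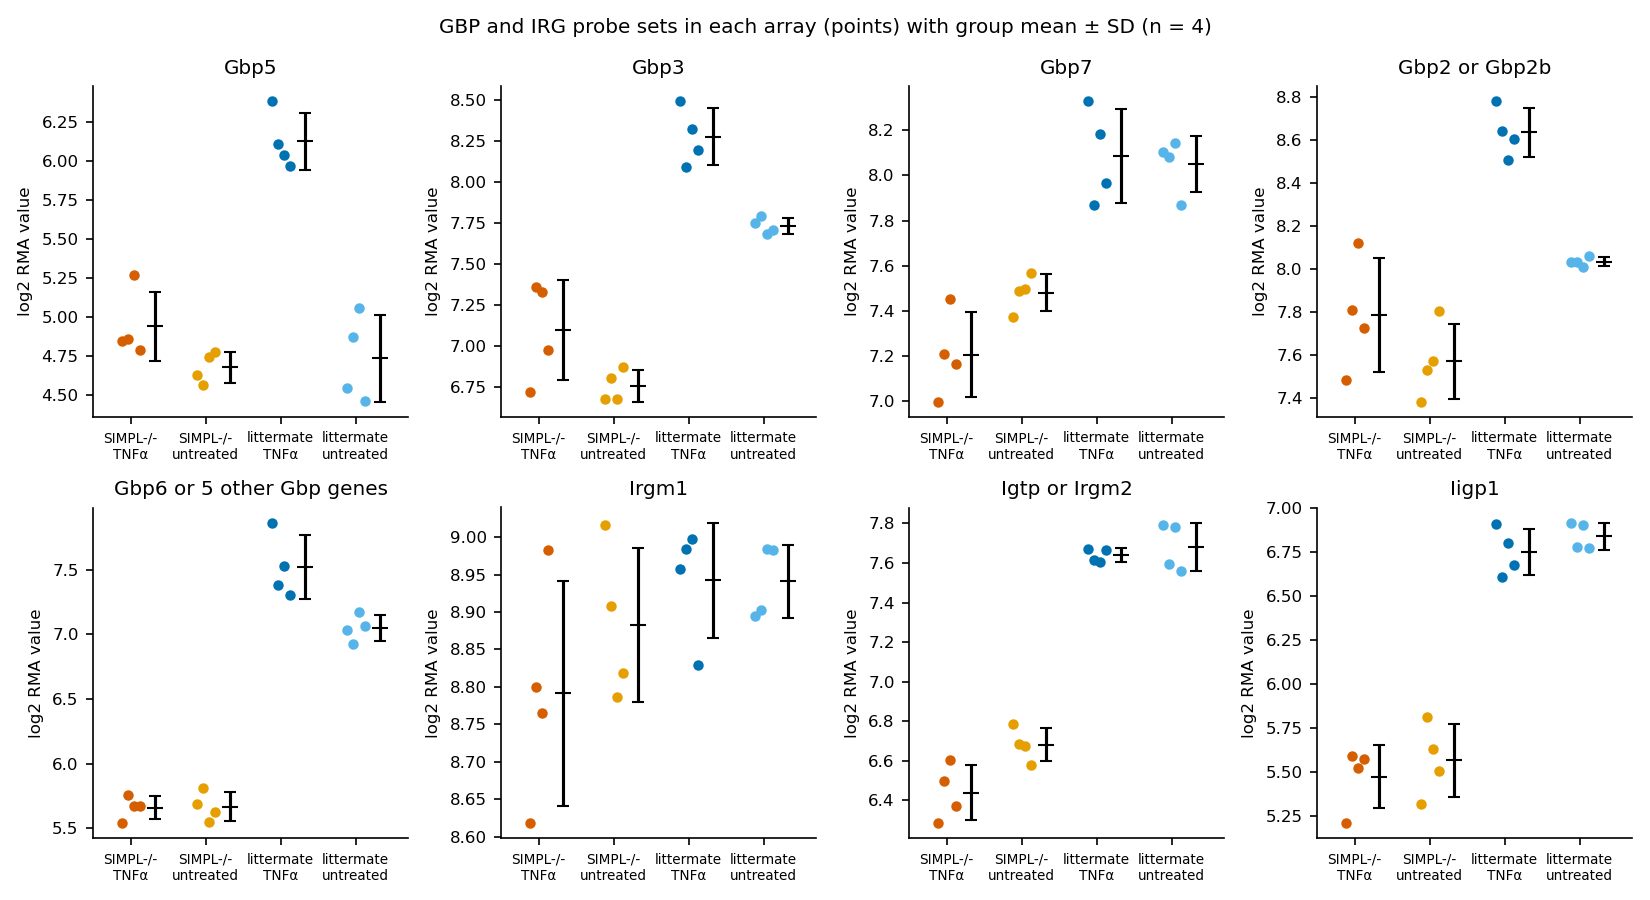
Log2 signal (y axis) of each of the 8 probe sets on each array, with the mean and SD of the 4 arrays per group, for SIMPL-/- with TNFα, SIMPL-/- untreated, littermate with TNFα and littermate untreated. Gbp5 stands apart only in treated littermate MEFs (5.97 to 6.38), Iigp1 is low in both SIMPL-/- groups (5.21 to 5.81) and high in both littermate groups (6.61 to 6.91), and Irgm1 overlaps in all 4.

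In SIMPL-/- MEFs, TNFα changed none of the members past the test. No member was called (0 of 5 by limma at an adjusted p under 0.05 and 0 by the methods' t-test, with 2 at an unadjusted p under 0.05, Gbp3 and Gbp7), where 1.73% of all 19938 genes rose and 1.39% fell. None of the 3 shared probe sets was called either (0 by limma, 0 by the methods' t-test and 1, Igtp or Irgm2, at an unadjusted p under 0.05), where 1.21% of all 28853 probe sets rose and 0.811% fell. The median change was -0.09 over the members and -0.02 over all genes.

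Gbp5, which assembles with other GBPs on pathogen membranes and promotes NLRP3 inflammasome activity, read 4.85, 4.85, 5.27 and 4.79 in treated SIMPL-/- MEFs, against 4.63, 4.56, 4.74 and 4.78 in untreated ones. The treated arrays were all above the untreated ones, with 3 of the 4 close to them, and the difference was 0.26 (SE 0.13, interval 0.00 to 0.53, adjusted p = 0.322). Gbp3, a GBP of the same chromosome 3 cluster, read 6.72, 7.36, 7.33 and 6.98 in treated SIMPL-/- MEFs, against 6.67, 6.80, 6.67 and 6.87 in untreated ones. Here 1 treated array lay within the untreated range, and the difference of 0.34 (SE 0.11, interval 0.10 to 0.58) did not pass (adjusted p = 0.128). Without that array, replicate 1 of the treated SIMPL-/- group, Gbp3 passed, at 0.47 (adjusted p = 0.0136), and with arrays weighted by quality it passed at 0.43 (adjusted p = 0.02), in a range of 0.0136 to 0.422 over the alternatives.

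The values of Gbp7 lay on the other side. Gbp7, which in the mouse takes part in defence against bacteria, read 7.0, 7.21, 7.45 and 7.17 in treated SIMPL-/- MEFs, against 7.37, 7.49, 7.50 and 7.57 in untreated ones, and 3 of the 4 treated arrays were below all untreated arrays (difference -0.28, interval -0.49 to -0.06, adjusted p = 0.17). The probe set of the regulatory IRGs Igtp or Irgm2 read 6.28, 6.5, 6.60 and 6.37 in treated and 6.79, 6.68, 6.68 and 6.58 in untreated SIMPL-/- MEFs. These groups overlapped by 1 array (difference -0.24, interval -0.40 to -0.09, adjusted p = 0.117). It was called lower when dim genes were left out (adjusted p = 0.0488) and without replicate 3 of the treated SIMPL-/- group (adjusted p = 0.0402), and its adjusted p reached 0.328 under another. The remaining probe sets, Irgm1 at -0.09, Iigp1 at -0.09, Gbp2 or Gbp2b at 0.21 and Gbp6 with its relatives at -0.01, had adjusted p-values between 0.406 and 0.984.

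In littermate MEFs, TNFα raised Gbp5 and Gbp3 and the 3 other singly measured members did not pass the test. Gbp5 was 2.63-fold and Gbp3 1.46-fold higher after treatment. The probe sets of Gbp2 or Gbp2b and of Gbp6 and its 5 relatives also rose, by 1.52-fold and 1.38-fold, whereas the IRG probe sets, Irgm1, Iigp1 and Igtp or Irgm2, did not pass. Thus 2 of 5 members rose and 0 fell, where 2.7% of all genes rose and 2.45% fell (limma, adjusted p under 0.05). Of the 3 shared probe sets 2 rose and 0 fell, where 1.92% of all probe sets rose and 1.99% fell. The median change was 0.04 over the 5 members and 0.01 over all genes. At the threshold in the study's results, a fold over 1.5 at p under 0.001, here with limma's p, 1 of 5 members (Gbp5) passed. Over all genes 0.868% passed upward and 0.135% downward. Of the 3 shared probe sets 1 passed it, that of Gbp2 or Gbp2b.

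Gbp5 read 6.38, 6.11, 6.04 and 5.97 on the 4 arrays of treated littermate MEFs, against 4.54, 4.87, 5.05 and 4.46 on the untreated ones. The lowest treated array, 5.97, lay above the highest untreated array, 5.05. The difference was 1.39 on the log2 scale (SE 0.13, 95% interval 1.13 to 1.66, adjusted p = 3.32e-07, limma). Gbp5 is among the genes left out when dim genes are removed, so it has no value under that setting.

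Gbp3 read 8.49, 8.09, 8.32 and 8.20 in treated littermate MEFs, against 7.75, 7.79, 7.68 and 7.70 in untreated ones. The groups did not overlap, and the treated arrays spread more widely than the untreated arrays (SD 0.17 and 0.05, n = 4 each). The difference was 0.55 (SE 0.11, 95% interval 0.31 to 0.78, adjusted p = 0.00573). Gbp7, which lies between Gbp5 and Gbp3, read 8.33, 7.87, 8.18 and 7.97 in treated and 8.10, 8.08, 8.14 and 7.87 in untreated littermate MEFs. These groups overlapped, and the interval of the difference ran from -0.17 to 0.25 (adjusted p = 0.912). In chromosomal order the estimated responses were 1.39 for Gbp5, 0.04 for Gbp7 and 0.55 for Gbp3, and whether they differ from gene to gene was not tested.

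The probe set of Gbp2, which coats parasite vacuoles, or Gbp2b read 8.78, 8.64, 8.51 and 8.61 in treated littermate MEFs, against 8.03, 8.03, 8.01 and 8.06 in untreated ones. All treated arrays were higher (difference 0.60, SE 0.11, adjusted p = 0.00303). A second probe set, listed for Gbp2b alone, averaged 5.42 in treated and 5.12 in untreated littermate MEFs and did not pass the test. The probe set of Gbp6 and 5 related Gbp genes read 7.86, 7.38, 7.53 and 7.30 in treated littermate MEFs, against 7.03, 6.93, 7.17 and 7.07 in untreated ones. Again the groups did not overlap (difference 0.47, SE 0.10, adjusted p = 0.0106), but 2 other fits did not call it (adjusted p = 0.0634 with the compared arrays alone and 0.191 with the methods' t-test, in a range of 0.00486 to 0.191 over all alternatives). Of the genes it is listed for, 4 also have a probe set of their own. Among these, Gbp11 rose by 0.61 (adjusted p = 0.00107, and 0.000191 to 0.0883 over the alternatives, the highest with the methods' t-test), while Gbp4 (0.16, adjusted p = 0.683), Gbp8 (-0.09, adjusted p = 0.788) and Gbp9 (-0.14, adjusted p = 0.705) were not called.

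The IRG probe sets of the listed genes, Irgm1, Iigp1 and Igtp or Irgm2, did not pass the test in littermate MEFs. Irgm1, which guards the cell's own membranes against effector IRGs, read 8.96, 8.98, 9.0 and 8.83 in treated and 8.89, 8.90, 8.98 and 8.98 in untreated littermate MEFs. The difference was 0.00 with an interval of -0.15 to 0.15, the narrowest of the 5 members. Iigp1, an effector IRG that loads onto parasite vacuoles, read 6.91, 6.61, 6.80 and 6.68 in treated and 6.91, 6.78, 6.90 and 6.77 in untreated littermate MEFs, overlapping groups with an interval of -0.30 to 0.12. The probe set of Igtp or Irgm2 changed by -0.04 (interval -0.20 to 0.11, adjusted p = 0.856).

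**Figure D3:**
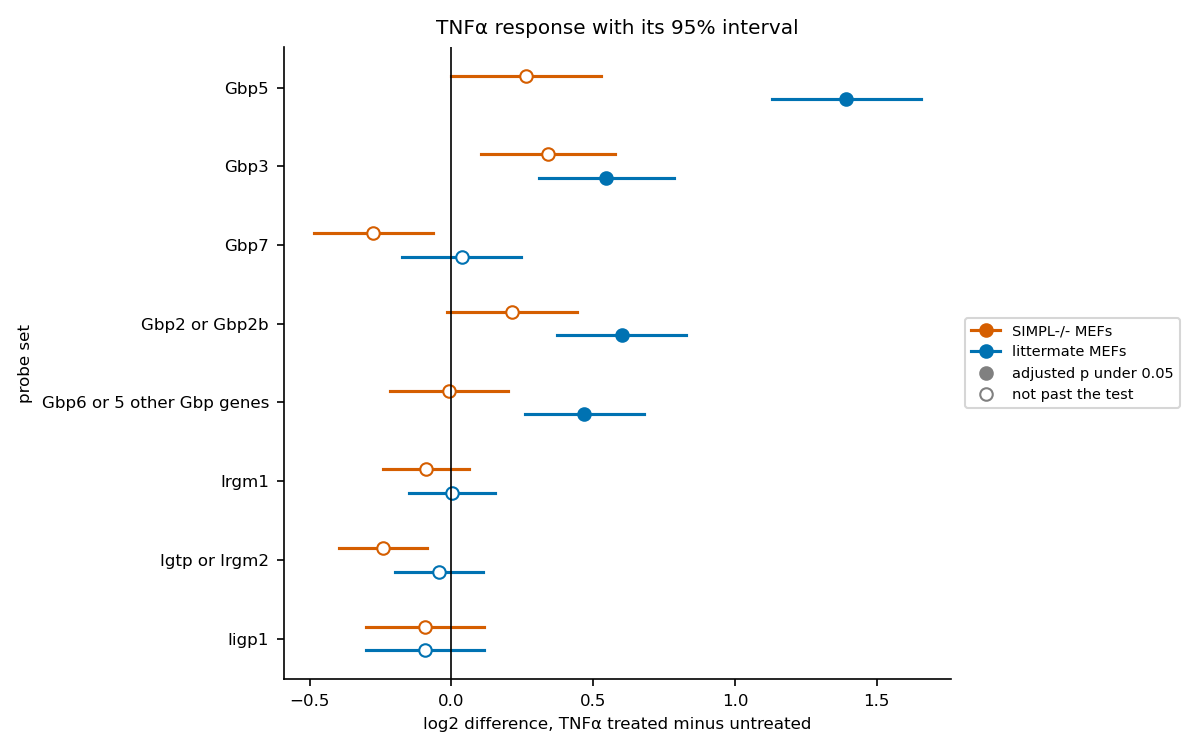
TNFα response (x axis, log2 difference of treated minus untreated MEFs, with 95% interval) of the 8 probe sets in SIMPL-/- and in littermate MEFs, filled where the adjusted p is under 0.05. Gbp5 has the widest separation between genotypes, 0.26 in SIMPL-/- and 1.39 in littermate MEFs, while Irgm1 and Iigp1 lie near 0 in both.

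The comparison of the 2 responses answers whether the TNFα response of the cultures differed between the genotypes. For Gbp5 it did, and was 1.13 smaller on the log2 scale in SIMPL-/- MEFs than in littermate MEFs (SE 0.18, interval -1.50 to -0.76, adjusted p = 0.00331). It was the single member called (1 of 5, lower), where 0.0953% of all genes had a larger and 0.441% a smaller response in SIMPL-/- MEFs. None of the 3 shared probe sets was called (0 by limma, 0 by the methods' t-test, 2 at an unadjusted p under 0.05), where 0.0624% of all probe sets had a larger and 0.263% a smaller response. Without the treated SIMPL-/- array with the highest Gbp5 value, and in each other fit with 1 array left out, Gbp5 was called as well, and over all alternatives that tested it its adjusted p ran from 0.000327 to 0.0418. Beside it, 27 of 28 myeloid markers were lower in SIMPL-/- MEFs, and the myeloid marker Cd14 also had a smaller response there (-0.61, adjusted p = 0.00529). In bulk RNA, fewer cells of a type and less RNA per cell cannot be told apart, and the part of these markers in the difference was not tested.

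For the other members the difference of responses was not resolved. It was -0.21 for Gbp3 (interval -0.54 to 0.13, adjusted p = 0.615), so the littermate-only call of Gbp3 is not a shown difference between the genotypes. For Gbp7 it was -0.31 (interval -0.61 to -0.01, adjusted p = 0.367), for Gbp2 or Gbp2b -0.39 (interval -0.71 to -0.06, adjusted p = 0.331) and for Gbp6 with its relatives -0.48 (interval -0.77 to -0.18, adjusted p = 0.194). These 3 intervals, which carry no adjustment, lie below 0, and the adjusted p-values did not pass. Irgm1, at -0.09 (interval -0.30 to 0.12), and Iigp1, at -0.00036 (interval -0.29 to 0.29), were not called, and these intervals are what 4 arrays per group resolved.

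After TNFα, SIMPL-/- MEFs had less Gbp5, Gbp3, Gbp7 and Iigp1 than littermate MEFs, and Irgm1 did not pass the test. Of the 5 members 4 were lower in treated SIMPL-/- MEFs and 0 higher, where 18.4% of all genes were lower and 17.8% higher. All 3 shared probe sets were lower, where 16.8% of all probe sets were lower and 16.5% higher. The median difference was -1.18 over the members and 0.03 over all genes. The myeloid markers given above were lower in the same comparison, and their part in the result was not tested. The labels name no batch, and one that followed genotype cannot be told apart from it.

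Gbp5 read 4.85, 4.85, 5.27 and 4.79 in treated SIMPL-/- MEFs, against 6.38, 6.11, 6.04 and 5.97 in treated littermate MEFs. The highest SIMPL-/- array was below the lowest littermate array, and the level was 2.27-fold lower (log2 difference -1.19, SE 0.13, adjusted p = 3.35e-07). Gbp3 was 2.27-fold lower as well (-1.18, SE 0.11, adjusted p = 8.7e-08) and Gbp7 1.84-fold lower (-0.88, SE 0.10, adjusted p = 8.49e-07). Both did so without overlap of arrays. The share of all genes without such overlap is not given here, for this or any other comparison. Iigp1 read 5.21, 5.59, 5.53 and 5.57 in treated SIMPL-/- MEFs, against 6.91, 6.61, 6.80 and 6.68 in treated littermate MEFs, without overlap (log2 difference -1.27, SE 0.10, adjusted p = 5.16e-09).

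Among the shared probe sets, that of Gbp6 and its relatives had the largest difference of the 8 probe sets described here. It read 5.54, 5.76, 5.67 and 5.67 in treated SIMPL-/- MEFs, against 7.86, 7.38, 7.53 and 7.30 in treated littermate MEFs, a 3.63-fold lower level (-1.86, SE 0.10, adjusted p = 1.72e-10). The probe set of Igtp or Irgm2 was lower by 2.30-fold (-1.20, adjusted p = 9.73e-10) and that of Gbp2 or Gbp2b by 1.80-fold (-0.85, adjusted p = 7.18e-06). In both, every SIMPL-/- array was below every littermate array, again without the share over all probe sets.

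Without TNFα, SIMPL-/- MEFs had less Iigp1, Gbp3 and Gbp7 than littermate MEFs, while Gbp5 and Irgm1 did not pass the test. Of the 5 members 3 were lower and 0 higher, where 17.6% of all genes were lower and 23.3% higher. All 3 shared probe sets were lower, where 16.2% of all probe sets were lower and 20% higher. The median difference was -0.57 over the members and 0.07 over all genes. The myeloid markers were lower here as well, and their part was not tested.

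Iigp1 read 5.32, 5.81, 5.63 and 5.51 in untreated SIMPL-/- MEFs, against 6.91, 6.78, 6.90 and 6.77 in untreated littermate MEFs, so the groups were far apart. The level was 2.41-fold lower (log2 difference -1.27, SE 0.10, adjusted p = 5.85e-09), a difference equal to that after TNFα to 2 decimals. Gbp3 read 6.67, 6.80, 6.67 and 6.87 in untreated SIMPL-/- MEFs, against 7.75, 7.79, 7.68 and 7.70 in untreated littermate MEFs, again without overlap (1.97-fold lower, log2 difference -0.98, SE 0.11, adjusted p = 1.27e-06). Gbp7 was 1.48-fold lower (log2 difference -0.57, SE 0.10, adjusted p = 0.000165), with every SIMPL-/- array below every littermate array. Gbp5 read 4.63, 4.56, 4.74 and 4.78 in untreated SIMPL-/- MEFs, within the range of 4.46 to 5.05 in untreated littermate MEFs (difference -0.06, interval -0.32 to 0.21, adjusted p = 0.737). Whether these low Gbp5 levels lay above the background of the array was not tested.

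The shared probe sets were lower without TNFα too. That of Gbp6 and its relatives read 5.69, 5.81, 5.55 and 5.63 in untreated SIMPL-/- MEFs, against 7.03, 6.93, 7.17 and 7.07 in untreated littermate MEFs, a 2.61-fold lower level without overlap (log2 difference -1.38, adjusted p = 7.8e-09). That of Igtp or Irgm2 was 2.0-fold lower (log2 difference -1.0, SE 0.07, adjusted p = 1.05e-08). That of Gbp2 or Gbp2b was 1.38-fold lower (log2 difference -0.46, adjusted p = 0.00292), and which of its genes it follows was not tested. The probe set of Gbp2b alone went the other way, with means of 6.17 in untreated SIMPL-/- MEFs and 5.12 in untreated littermate MEFs (difference 1.05, adjusted p = 6.18e-07).

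Irgm1 was the member whose groups overlapped in each pairing. It read 8.62, 8.80, 8.77 and 8.98 in treated SIMPL-/- MEFs, against 8.96, 8.98, 9.0 and 8.83 in treated littermate MEFs. The difference of -0.15 (interval -0.30 to 0.00) did not pass (adjusted p = 0.115), but it did without replicate 4 of the treated SIMPL-/- group, at -0.21 (adjusted p = 0.02, in a range of 0.02 to 0.405 over the alternatives). Without TNFα the difference was -0.06 (interval -0.21 to 0.09, adjusted p = 0.525).

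**Figure D4:**
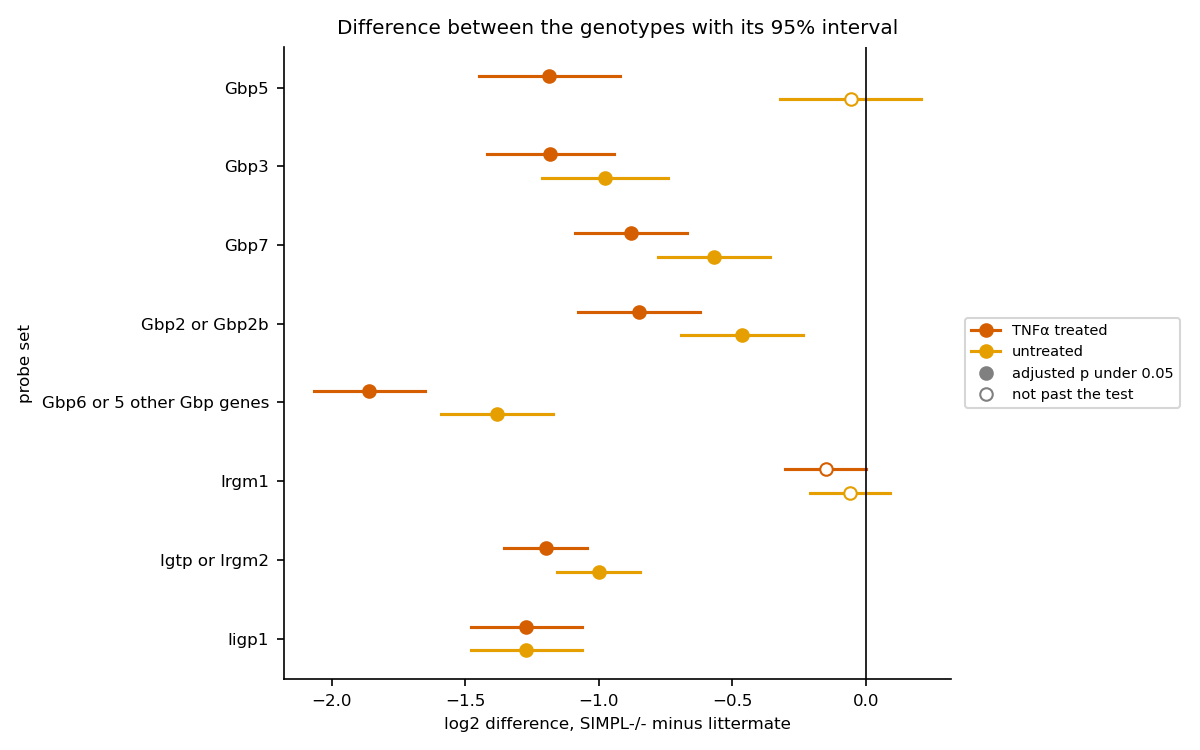
Difference between the genotypes (x axis, log2 difference of SIMPL-/- minus littermate MEFs, with 95% interval) for the 8 probe sets, treated with TNFα and untreated, filled where the adjusted p is under 0.05. All probe sets but Irgm1 passed the test after TNFα, and Gbp5 passed after TNFα (-1.19) and not without it (-0.06).

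The other measured genes of both families, 10 in all, were less uniform. None of the 10 was called for TNFα in SIMPL-/- MEFs (0 by limma, 0 by the methods' t-test, 1 at an unadjusted p under 0.05). In littermate MEFs TNFα raised Gbp11 (0.61) and Irgq (0.43) and lowered Gm4951 (-0.39, adjusted p = 0.0467, and 0.0124 to 0.299 over the alternatives), calls that limma made for 3 of the 10 and the methods' t-test for 0. The difference of responses was called for none either (0 by limma, 0 by the methods' t-test, 2 at an unadjusted p under 0.05), with Gbp11 at -0.62 (adjusted p = 0.0749). After TNFα 5 of the 10 were lower in SIMPL-/- MEFs (Gbp4, Gbp9, Gbp11, Irgq and Gm4951) and 1, Gbp2b, higher. Without TNFα 5 were lower (Gbp4, Gbp8, Gbp9, Gbp11 and Gm4951) and 2 higher (Gbp2b and Irgc1). Of all genes, 18.4% were lower and 17.8% higher with TNFα, and 17.6% lower and 23.3% higher without it. Gbp9 differed by -0.78 treated and -0.85 untreated, and Gm4951, an IRG gene, by -0.96 and -1.09. The IRGs Tgtp1 and Tgtp2, which share 2 probe sets, were lower in treated SIMPL-/- MEFs by 0.78 and 0.68 on the log2 scale (adjusted p = 2.82e-06 and 3.78e-05), and a probe set of Ifi47, an IRG, shared with an odorant receptor gene, by 0.56 (adjusted p = 3.75e-05). For TNFα in littermate MEFs limma called none of these probe sets, at 0.33, 0.24 and 0.23 (adjusted p = 0.0516, 0.242 and 0.156). Over the alternatives the adjusted p ran from 0.0416 to 0.169 for the first and from 0.0486 to 0.385 for Ifi47. Their differences of responses, -0.46, -0.40 and -0.38, were not called by limma either (adjusted p = 0.181, 0.282 and 0.211).

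Of the factors upstream, Irf1, the transcription factor that acts at ISREs, rose in both genotypes and less so in SIMPL-/- MEFs. It averaged 10.6 in treated and 8.43 in untreated SIMPL-/- MEFs, against 11.8 in treated and 8.51 in untreated littermate MEFs. TNFα raised it by 2.17 in SIMPL-/- MEFs (adjusted p = 1.08e-13) and by 3.28 in littermate MEFs (adjusted p = 9.21e-17), and the responses differed by -1.10 (adjusted p = 1.01e-05). Among 15 measured JAK, STAT and IRF genes, 1 rose (Irf1) and 2 fell (Stat2 and Irf9) in SIMPL-/- MEFs (3 called by limma, 2 by the methods' t-test), and 2 rose (Irf1 and Jak2) and 1 fell (Stat2) in littermate MEFs. Only Irf1 differed in response. Treated SIMPL-/- MEFs had 8 of the 15 lower and 0 higher than littermate MEFs, and untreated ones had 5 lower (Stat2 by -1.15, Irf9 by -0.77, Irf7 by -0.62, Irf8 by -0.61 and Irf2 by -0.26) and 2 higher (Jak1 and Jak2). The shares over all genes were 18.4% lower and 17.8% higher with TNFα, and 17.6% lower and 23.3% higher without it.

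Of 6 genes for interferon ligands and receptors, 3 rose in SIMPL-/- MEFs, the interferon-γ receptor chains Ifngr1 and Ifngr2 and the interferon-α/β receptor chain Ifnar2, by limma but 0 of the 6 by the methods' t-test. In littermate MEFs Ifngr1 and Ifngr2 rose (2 by either test), while no difference of responses was called (0 by limma, 0 by the methods' t-test, 1 at an unadjusted p under 0.05). Against littermate MEFs 3 were lower in treated SIMPL-/- MEFs and 2 in untreated ones. Of 6 feedback inhibitors of interferon signalling, Ptpn2 rose in SIMPL-/- MEFs (1 by limma, 0 by the methods' t-test) and Socs1 and Socs3 in littermate MEFs (2 by limma, 1 by the methods' t-test). The response of Socs3 differed by -0.52 (adjusted p = 0.0341), and that difference did not pass under several alternatives (adjusted p = 0.00374 to 0.184, the highest with the mean of its probe sets). Treated SIMPL-/- MEFs had 4 of the 6 lower, and untreated ones 3 lower and 1 higher. For both lists the shares over all genes were 18.4% lower and 17.8% higher with TNFα. Without it they were 17.6% lower and 23.3% higher.

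The inflammasome genes that act downstream of GBPs held 2 of 8 whose responses differed between the genotypes. Casp4, which senses cytosolic lipopolysaccharide and in mice is also called caspase-11, rose by 0.35 in SIMPL-/- MEFs (adjusted p = 0.0477) and by 1.13 in littermate MEFs (adjusted p = 8.86e-08), and the responses differed by -0.79 (adjusted p = 0.00597). Nlrp3, the inflammasome sensor that GBP5 promotes, rose by 0.39 in SIMPL-/- MEFs (adjusted p = 0.0251) and by 1.11 in littermate MEFs (adjusted p = 1.5e-07), and its responses differed by -0.71 (adjusted p = 0.0148, and 0.00135 to 0.0743 over the alternatives). By the methods' t-test 1 of the 2 differences passed and neither rise in SIMPL-/- MEFs did. The rise of Casp4 in SIMPL-/- MEFs had an adjusted p of 0.0169 to 0.121 over the alternatives and that of Nlrp3 one of 0.00718 to 0.191. Treated SIMPL-/- MEFs had 5 of the 8 lower, and untreated ones 4 lower and 2 higher. Of 13 autophagy and ubiquitin partners of these GTPases, Sqstm1 rose in SIMPL-/- MEFs and Sqstm1 and Traf6 in littermate MEFs (2 by limma, 1 by the methods' t-test). None of the 13 differed in response (0 by limma, 0 by the methods' t-test, 2 at an unadjusted p under 0.05), and 8 were lower and 2 higher in treated and 5 lower in untreated SIMPL-/- MEFs. Beside both lists, 18.4% of all genes were lower and 17.8% higher in treated SIMPL-/- MEFs. In untreated ones 17.6% were lower and 23.3% higher.

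A list of 26 other interferon-stimulated genes was read in the same way. In SIMPL-/- MEFs TNFα raised the chemokines Cxcl9 and Cxcl10 and lowered Tap1 and Rtp4 (4 called by limma, 2 by the methods' t-test), and in littermate MEFs it raised Cxcl9 and Cxcl10. Only Cxcl10 differed in response (-0.62, adjusted p = 0.0127, and 0.0006 to 0.0579 over the alternatives). Against littermate MEFs 21 of the 26 were lower in treated and 20 in untreated SIMPL-/- MEFs, and 0 were higher in either, with medians of -0.58 and -0.44. Of all genes, 18.4% were lower and 17.8% higher in treated SIMPL-/- MEFs, and 17.6% lower and 23.3% higher in untreated ones. The myeloid markers were lower in the same comparisons, and their part was not tested. As a check of the treatment, 5 of 5 TNFα target genes (Nfkbia, Tnfaip3, Cxcl1, Ccl2 and Icam1) rose in both genotypes, and for 3 of them (Nfkbia, Tnfaip3 and Icam1) the response was smaller in SIMPL-/- MEFs. TNFα raised none of the myeloid markers in SIMPL-/- MEFs and 2, Cd14 and Clec4d, in littermate MEFs, with a smaller response of Cd14 in SIMPL-/- MEFs. Of the fibroblast markers Twist2 rose in both genotypes and Pdgfra fell in SIMPL-/- MEFs, and no lymphoid, endothelial or epithelial marker was called for TNFα in either.

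Over the 16 arrays, the genes whose values ran closest to each member differed between members. Those nearest to Gbp5 were Nlrp3 (Pearson r = 0.965), the Toll-like receptor gene Tlr2 (0.961) and Ccrl2 (0.951), and those nearest to Gbp3 were Ralgds (0.964), the class I histocompatibility gene H2-Q4 (0.964) and Gpcpd1 (0.962). For Gbp7 they were Vwa5a (0.977), Mpp1 (0.976) and Os9 (0.976), and for Iigp1 Klhl24 (0.989), Cyp7b1 (0.989) and Cybrd1 (0.988). Irgm1, which varied least, had Tmem159 (0.858), Foxred1 (0.851) and Bloc1s3 (0.847). These correlations describe arrays that share the 4 groups and carry no test.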

How the data were processed

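The authors deposited log2 signals for 28853 probe sets of 16 arrays. Per the labels these were made with RMA in Partek, whereas Affymetrix Microarray Suite is the program in the paper, and versions and a genome build are not given in the sources used here. Of the probe sets, 21789 were listed with 1 gene symbol, 1621 with several and 5443 with none. The brightest probe set stood for each of the 998 genes with more than 1. The 5 contrasts came from 1 limma fit (limma 3.58.1 in R 4.3.3) on all 16 arrays with a mean per group, two-sided, with Benjamini-Hochberg adjustment over all 19938 genes and calls at adjusted p under 0.05. Probe sets of several genes were tested in a fit over all 28853 probe sets, a choice made after seeing the data. Residual degrees of freedom were 12, and treated and untreated arrays of 1 embryo entered as independent. On simulated data, the fit recovered 94% of genes changed 1.5-fold and 100% of those changed 2-fold for the littermate response. For the difference of responses it recovered 84% and 98% (50 genes per fold among 19938). It also made 13 false calls among unchanged genes for the littermate response and 15 for the difference. The simulated arrays were independent, with no genotype difference and no shared embryo. Members and gene lists were chosen with earlier results of these data known. Members were all named, list genes were named where they passed the test, and the 3 genes most correlated with each member were named. Alternatives were normalization, dim-gene removal, variance models, array weights, the compared arrays alone, the mean of probe sets, the methods' t-test, the study's fold and p threshold and each array left out. The paper's methods give no test of a difference of responses. What is called the methods' t-test for that difference was a t-test of the contrast over all 4 groups, without limma's shared variance. The precision is limited by 4 arrays per group. Closely related GBP genes can cross-hybridise. Motifs were searched in RefSeq promoter windows (GRCm38.p6).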

Additional observations from a re-analysis of the deposited data

Results flagged for a closer look

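In treated SIMPL-/- MEFs, the highest Gbp5 array, at 5.27, stood apart from the other 3 (Dixon ratio 0.86). It was the 1 outlying array in 32 groups of 4 tested, and chance alone marks about 1 group in 20.

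The TNFα response differed between SIMPL-/- and littermate MEFs, by limma's test of the difference itself, for Gbp5 by -1.13, for Irf1 by -1.10, for Casp4 by -0.79, for Nlrp3 by -0.71, for Cxcl10 by -0.62 and for Socs3 by -0.52 on the log2 scale, each a smaller response in SIMPL-/- MEFs.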

How the results depend on the processing

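The number of members called moved under few settings. For the littermate response it was 1 in place of 2 with dim genes left out, since Gbp5 was then not tested, and 1 at the study's fold and p threshold. For the SIMPL-/- response it was 1 in place of 0 with array weights, and 0 to 1 with 1 array left out. For the difference of responses it was 0 in place of 1 with dim genes left out, and for treated SIMPL-/- against littermate MEFs 2 in place of 4, as Gbp5 and Iigp1 were not tested. Leaving out 1 array gave 2 to 2 for the littermate response, 1 to 1 for the difference, 3 to 3 without TNFα and 4 to 5 with it.

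Signs turned only for values near 0. With median centring, quantile normalization and array weights, the SIMPL-/- response of Gbp11 was 0.0236, 0.0125 and 0.0335, that of Gbp6 with its relatives 0.0221, 0.00678 and 0.0193, and the difference of responses of Iigp1 0.0299, 0.0231 and 0.0581. The SIMPL-/- response of Socs3 was 0.0309 with centring, 0.0154 with quantile normalization and 0.0488 with the mean of its probe sets. With 1 array left out, the SIMPL-/- response ran from -0.0681 to 0.0409 for Gbp11, -0.0611 to 0.141 for Gbp2b, -0.048 to 0.0402 for Gbp6 with its relatives, -0.185 to 0.129 for Gbp9, -0.0719 to 0.101 for Irak1bp1 and -0.0841 to 0.0452 for Socs3. The littermate response ran from -0.0442 to 0.11 for Gbp7 and -0.0173 to 0.0388 for Irgm1, the difference of responses from -0.0476 to 0.267 for Gbp9 and -0.0827 to 0.088 for Iigp1, and the genotype difference of Gbp5 without TNFα from -0.147 to 0.0512.

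No paired analysis was possible because the embryo behind each array is not given. Dim genes, among them Gbp5 and Iigp1, have no value where such genes are left out. Cross-hybridisation between related GBP genes was not tested.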
